A study of Mus musculus with 3 samples.

Results

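Regions whose nearest annotated gene encodes a vomeronasal receptor were taken from a chromatin immunoprecipitation table for the transcription factor Ets-1. The members were all regions of the deposited comparison table with a nearest gene named Vmn1r or Vmn2r, at any distance, and the read counts played no part in that choice. The rule gave 3003 of 543367 listed regions, of which 1366 lay nearest to 190 Vmn1r genes and 1637 nearest to 121 Vmn2r genes. The chromatin came from Min6, a mouse insulinoma line used as a model of pancreatic β cells, grown in 25 mM glucose and fixed in 1% formaldehyde for 10 min. One library was precipitated with an Ets-1 antibody 24 h after infection with AdEts1, an adenovirus carrying Ets-1. The other was precipitated with the same antibody 24 h after infection with AdGFP, a control adenovirus carrying GFP. The remaining library was the input, whose labels name no virus. All 3 libraries share the cell line and the medium, and the control cells carry their own Ets-1 protein, so the AdGFP library is not a library without the factor.

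Each group was a single library, so no p-value is given, and every interval covers counting error only. The read totals implied by the deposited values were 1938473 with AdEts1, 1775758 with AdGFP and 3937472 in the input. Gene expression was not measured, so neither the identity of the cells nor the activity of any receptor gene was checked here.

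Vomeronasal receptors are G protein-coupled receptors of the sensory neurons of the vomeronasal organ, where they detect pheromones and other social chemical cues. V1R receptors, the products of Vmn1r genes, have a short extracellular end encoded with the rest of the protein in a single coding exon, and signal through Gαi2 in apical neurons. V2R receptors, the products of Vmn2r genes, carry a large extracellular ligand-binding domain spread over several exons, and signal through Gαo in basal neurons. Each neuron chooses very few of these genes, and both families sit in tandem arrays of similar copies rich in LINE repeats. No role of either family in β cells forms part of that textbook account. Ets-1 binds DNA around the core GGAA, which reads TTCC on the opposite strand.

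The 10 member regions with the most precipitated reads and the 5 promoter-class regions with the most, which share Vmn2r100, are given by sequence as the best-read locations near these genes. Each line holds the central 200 bases of a region, on the plus strand of GRCm38.p6 (the mm10 assembly, sequence from RefSeq), and capitals mark every GGAA or TTCC. The 4 windows that touched an untranslated region in GENCODE M21, of Vmn2r79, Vmn1r189, Vmn1r192 and Vmn1r52, are not shown, which leaves 10. Vmn2r100 and Vmn2r101 were promoter-class regions (chr17:19502317-19502516 and chr17:19576748-19576947). The others were intronic or intergenic, near Vmn1r51 (chr6:90117996-90118195), Vmn2r19 (chr6:123329094-123329293), Vmn2r25 (chr6:123846685-123846884), Vmn1r66 (chr7:10262798-10262997), Vmn2r102 (chr17:19632233-19632432), Vmn2r94 (chr17:18237190-18237389), Vmn1r41 (chr6:89748566-89748765) and Vmn1r40 (chr6:89711067-89711266).
Vmn2r100: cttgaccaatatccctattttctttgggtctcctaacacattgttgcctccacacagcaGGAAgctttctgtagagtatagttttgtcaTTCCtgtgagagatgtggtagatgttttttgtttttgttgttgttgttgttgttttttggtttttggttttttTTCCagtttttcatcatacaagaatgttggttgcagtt
Vmn2r101: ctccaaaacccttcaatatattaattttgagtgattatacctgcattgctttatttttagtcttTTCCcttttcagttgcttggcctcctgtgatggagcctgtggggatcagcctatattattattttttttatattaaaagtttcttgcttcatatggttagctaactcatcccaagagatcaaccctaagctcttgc
Vmn1r51: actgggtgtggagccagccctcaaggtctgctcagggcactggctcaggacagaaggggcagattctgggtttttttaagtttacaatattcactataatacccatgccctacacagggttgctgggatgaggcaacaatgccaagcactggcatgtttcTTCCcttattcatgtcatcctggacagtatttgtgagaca
Vmn2r19: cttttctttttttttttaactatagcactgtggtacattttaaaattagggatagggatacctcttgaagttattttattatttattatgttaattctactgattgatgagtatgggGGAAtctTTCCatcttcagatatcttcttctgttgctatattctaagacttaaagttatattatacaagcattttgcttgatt
Vmn2r25: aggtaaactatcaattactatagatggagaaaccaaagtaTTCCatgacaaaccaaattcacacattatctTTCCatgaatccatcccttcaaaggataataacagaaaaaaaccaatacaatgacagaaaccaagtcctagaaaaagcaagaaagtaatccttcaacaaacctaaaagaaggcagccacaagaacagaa
Vmn1r66: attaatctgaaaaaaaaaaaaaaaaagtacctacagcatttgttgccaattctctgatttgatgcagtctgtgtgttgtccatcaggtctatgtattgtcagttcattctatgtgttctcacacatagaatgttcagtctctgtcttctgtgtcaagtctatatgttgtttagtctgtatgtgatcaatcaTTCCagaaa
Vmn2r102: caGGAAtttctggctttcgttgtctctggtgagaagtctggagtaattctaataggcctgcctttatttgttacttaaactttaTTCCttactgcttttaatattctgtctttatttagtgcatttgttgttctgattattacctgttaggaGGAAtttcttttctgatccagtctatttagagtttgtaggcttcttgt
Vmn2r94: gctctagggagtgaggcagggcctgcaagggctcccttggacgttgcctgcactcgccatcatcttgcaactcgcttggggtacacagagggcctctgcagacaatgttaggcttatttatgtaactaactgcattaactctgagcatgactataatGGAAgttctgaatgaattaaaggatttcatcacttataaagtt
Vmn1r41: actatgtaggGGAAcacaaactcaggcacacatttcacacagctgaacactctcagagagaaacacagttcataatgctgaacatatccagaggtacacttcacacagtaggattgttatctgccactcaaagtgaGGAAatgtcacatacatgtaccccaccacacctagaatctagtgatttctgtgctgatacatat
Vmn1r40: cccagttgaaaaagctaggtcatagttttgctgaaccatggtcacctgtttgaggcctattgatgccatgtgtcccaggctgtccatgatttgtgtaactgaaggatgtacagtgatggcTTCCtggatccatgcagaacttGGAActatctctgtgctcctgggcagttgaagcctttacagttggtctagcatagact

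All 10 windows held at least 1 core, with 3 in the Vmn2r100 and Vmn2r102 windows. None held CAGGAAGT or CCGGAAGT, the longer ETS words searched on both strands, and none of the 33 named regions did in the central 200 bases. The windows of Vmn2r25 and Vmn2r102 were 98% and 93.5% repeat-masked, whereas those of Vmn2r94 and Vmn1r40 held no masked base. The central 50 bases of each of these 10 regions occurred once in the genome.

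The most frequent place of a member region was between genes. Of the 3003 regions, 1487 (49.5%) were distal intergenic and 736 (24.5%) intronic, against 52.6% and 34.2% of all other regions. The promoter class, up to 2 kb from a start site, held 410 members (13.7%), against 7.66% of all other regions, and 288 of those lay within 1 kb. The 3′ UTR class held 204 members (6.79%), against 1.37% elsewhere. Neither share was particular to these genes. Of regions nearest olfactory receptor genes, 26.9% were in the promoter class and 8.69% in the 3′ UTR class, both above the members' shares. Exons held 77 (2.56%), sequence just downstream of genes 75 (2.50%) and the 5′ UTR 14 (0.466%).

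The families divided differently among these classes. Of Vmn1r regions 274 (20.1%) were in the promoter class, 105 (7.69%) intronic, 4 in other exons and 823 (60.2%) distal. Of Vmn2r regions 136 (8.31%) were in the promoter class, 631 (38.5%) intronic, 73 in exons and 664 (40.6%) distal. All 14 regions of the 5′ UTR class were near Vmn1r genes. The gene models differ in the same way, with a single short coding exon in Vmn1r genes and several exons over a longer span in Vmn2r genes. An exon, intron or UTR class could also come from a transcript other than the nearest one. The region 33995 bases upstream of a Vmn2r99 start site, for instance, was classed by an intron of another transcript. How far the gene models set these shares was not tested.

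**Figure D1:**
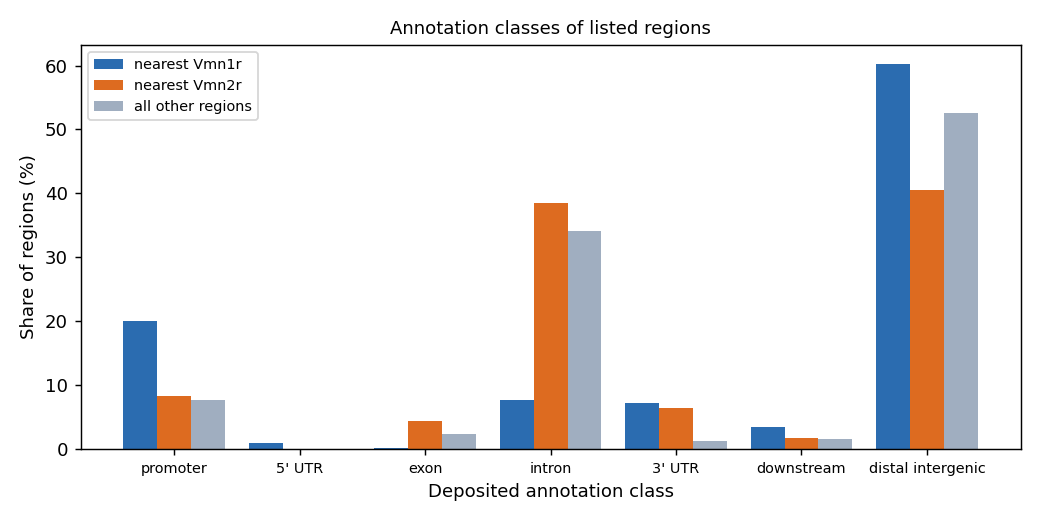
Share of regions (%, y axis) in each annotation class (x axis) for Vmn1r regions, Vmn2r regions and all other regions of the table. The promoter class held 20.1% of Vmn1r and 8.31% of Vmn2r regions against 7.66% of all other regions, and the intron class 7.69% and 38.5% against 34.2%.

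Read counts at the member regions were very low in every library. Per region, the AdEts1 library gave 0 to 12 reads with a median of 0, the AdGFP library 0 to 11 with a median of 1, and the input 0 to 2 with a median of 0. No read was counted in 1519 members (50.6%) with AdEts1, in 1169 (38.9%) with AdGFP and in 2851 (94.9%) in the input. At most 2 reads, the reads of 1 sequenced pair, were found in each precipitated library at 2462 members (82.0%), against 80.8% of all other regions. Of the nonzero counts, 71.2% with AdEts1 and 71.5% with AdGFP were even, against 15.8% in the input, and intervals here therefore count fragments of 2 reads. Why the input differed was not tested.

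Reads in both precipitated libraries were the exception. The AdEts1 library alone had reads at 1169 members (38.9%), the AdGFP library alone at 1519 (50.6%), and both at 315 (10.49%), against 11.8% for both among all other regions. At least 3 reads in both were counted at 15 members, and at least 5 in both at 0. At least 5 reads in either library were counted at 105 members (3.50%), against 4.13% elsewhere, and at least 10 in either at 7 (0.233%), against 0.258%. Of those 105, 38 were near Vmn1r and 67 near Vmn2r genes.

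**Figure D2:**
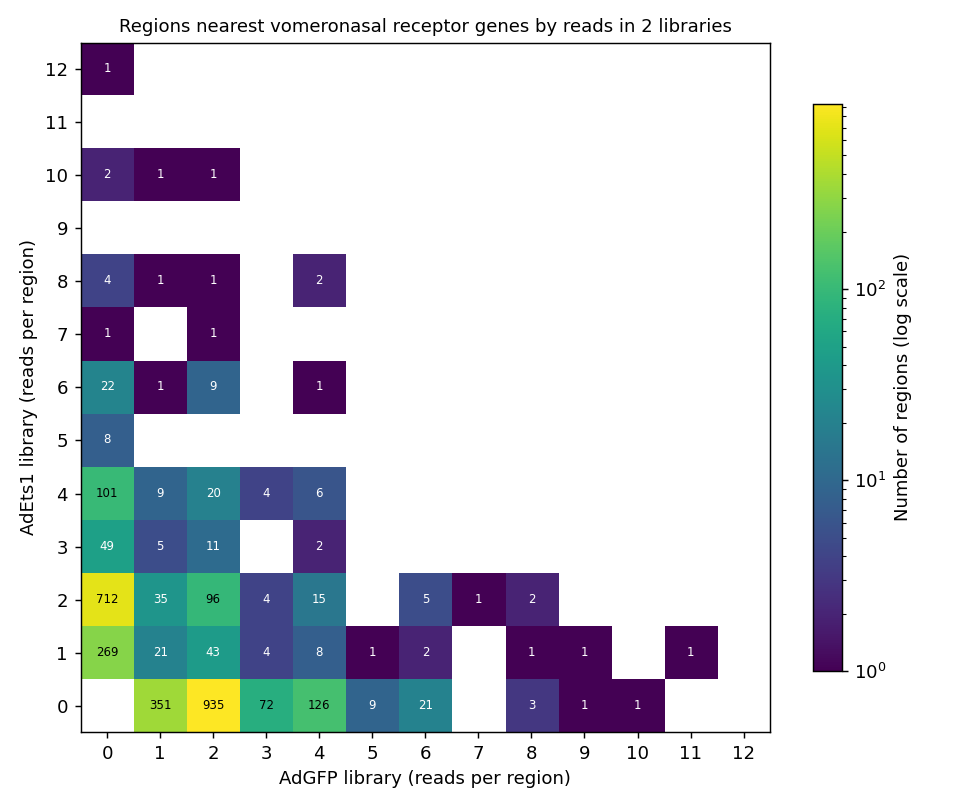
Number of member regions (colour, log scale) at each pair of read counts, with the count in one precipitated library on each axis. Most members lie on the axes at 0 reads in one library, and 315 of 3003 have reads in both. No member has 5 or more in both, against 0.092% of all other regions.

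By the table's own marks, 196 members (6.53%) were called in both precipitated libraries, against 6.13% of all regions. The AdEts1 library alone called 1199 (39.9%) and the AdGFP library alone 1608 (53.5%), against 37.5% and 56.4% of all other regions. The members' share called in both was thus near that of the whole table. The same count was 87 of 1366 Vmn1r regions and 109 of 1637 Vmn2r regions.

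The regions called in one library were also counted for reads of the other library. Where both libraries called a region, its listed bounds could run past the peak of one of them. The region near Vmn2r102 ended at 19632709 and its AdEts1 peak at 19632487. In sets called alone or not, the counted library's own peaks can therefore set part of the sequence. Their part in the values over even coverage was not tested. The members called with AdGFP, alone or not, spanned 516 kb and held 1.29 AdEts1 reads per kb, which is 1.77 times the 0.732 reads per kb that an even spread over the genome would give. The members called with AdEts1, alone or not, spanned 419 kb and held 1.14 AdGFP reads per kb, 1.703 times the even 0.671. Among all other regions, with the 10 most-read left out, these values were 2.15 and 2.35 times even coverage. Of the 1801 members called with AdGFP, 285 (15.8%) held any AdEts1 read. Of the 1394 called with AdEts1, 226 (16.2%) held any AdGFP read. At the 1605 members called with AdGFP alone, AdEts1 reads were 0.416 of even coverage, and at the 1198 called with AdEts1 alone, AdGFP reads were 0.136 of it. Those regions were chosen for having no call in the library counted, which lowers its reads there. A split by the counted library's own calls therefore cannot show where the excess over even coverage lay. Members called with AdEts1, alone or not, held 7.38 AdEts1 reads per kb. Those called with AdGFP, alone or not, held 7.42 AdGFP reads per kb. The calling itself selects for both values.

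Summed over the 3003 members, 846 kb in all, the AdEts1 library held 3220 reads, the AdGFP library 3862 and the input 176. Scaled to the read totals, the AdEts1 to AdGFP ratio was 0.764, with a 95% exact interval of 0.714 to 0.816 on fragments of 2 reads. Over all other regions without the 10 most-read it was 0.720 (0.717 to 0.724). It was 0.769 (0.696 to 0.850) for Vmn1r and 0.759 (0.694 to 0.831) for Vmn2r regions, 2 intervals that overlap over most of their width, and 0.757 (0.725 to 0.791) for the 6581 regions nearest olfactory receptor genes. The direction depended on the scaling. When each library was scaled to its reads in listed regions outside the 10 most-read, the members' ratio was 1.06 (0.992 to 1.13). The AdGFP library also called more regions, so sums over listed regions hold more of its reads by construction.

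Relative to the input, the members held 37.2 times (31.8 to 43.7) the scaled reads with AdEts1 and 48.7 times (41.7 to 57.1) with AdGFP. Other regions without the 10 most-read gave 23.1 and 32.04 times. A region entered the table because reads had gathered there in a precipitated library, which selects for a ratio over the input above 1. The members held 3.80 AdEts1 reads per kb against 0.732 for even coverage of the genome, and 4.56 AdGFP reads against 0.671. The input covered the members with 0.208 reads per kb, against 0.355 for other regions without the 10 most-read, and against 1.49 for even coverage of the genome. The ratios over the input thus also hold an input below even coverage, and why it was below was not tested.

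A region was called higher or lower here when it had at least 5 reads in either precipitated library and a deposited RPM ratio of at least 2 or at most its inverse. By that rule 53 members (1.76%) were higher with AdEts1, against 1.85% of all regions, and 49 (1.63%) were lower, against 1.95% of all regions. Vmn1r regions counted 24 higher (1.76%) and 12 lower (0.878%), and Vmn2r regions 29 higher (1.77%) and 37 lower (2.26%). The median deposited log2 ratio was -1.13 in members and in all other regions, the value of a region with no read with AdEts1 and 1 with AdGFP. Over both families the counts were near the background, while lower calls were below it for Vmn1r and above it for Vmn2r regions. The members called lower were those with at least 5 AdGFP reads, and no member had that many in both libraries. Regions with 5 to 9 AdGFP reads numbered 12 for Vmn1r and 35 for Vmn2r, and those with 10 or more 0 and 2. The contrast in lower calls is thus one of how many regions reached 5 AdGFP reads. The difference between the families in lower calls was not tested, and all calls rest on single libraries.

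Single regions show how few reads lie behind the largest differences. Over both precipitated libraries 5 members tied at the most reads, 12 each, near Vmn1r51, Vmn2r19, Vmn2r25, Vmn1r66 and Vmn2r79. The intronic region of Vmn2r25 on chromosome 6 (chr6:123846269-123847300) had 12 reads with AdEts1, 0 with AdGFP and 0 in the input. A neighbouring region of the same gene (chr6:123842789-123843244) had 0 reads with AdEts1, 8 with AdGFP and 1 in the input. Its central 50 bases occurred 7 times in the genome. The same V2R gene thus held a region read in the AdEts1 library alone beside a region read in the AdGFP library but not in the AdEts1 library.

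Regions with 10 reads with AdEts1 and 0 with AdGFP or in the input lay downstream of Vmn1r69 (chr7:10576214-10576462) and upstream of Vmn1r81 (chr7:12275027-12275299), both V1R genes of the same array on chromosome 7. The authors' AdEts1 peaks at these regions differed. The Vmn1r69 peak had 1.86-fold enrichment and a −log10 q of 0.0861, and the Vmn1r81 peak 4.64-fold and 2.99. Why equal counts came with unlike peak values was not tested. Intergenic sequence near Vmn2r102 (chr17:19631955-19632709) had 10, 1 and 0 reads in the AdEts1, AdGFP and input libraries, and that near Vmn1r66 (chr7:10262310-10263484) had 10, 2 and 0. On the other side, a region of the Vmn2r79 3′ UTR class (chr7:87007234-87008376) had 1, 11 and 0 reads and the intergenic region near Vmn2r94 (chr17:18237057-18237521) had 1, 9 and 2. The ratio was 0.0833 (0.00332 to 1.26) for Vmn2r79 and 4.58 (0.513 to 217) for Vmn1r66, so counting error alone spans 1 in both.

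Few regions were well read in both libraries. The region upstream of Vmn1r51 (chr6:90117634-90118556) and an intronic region of Vmn2r19 (chr6:123328585-123329802) had the same counts, 8 with AdEts1, 4 with AdGFP and 1 in the input. Their ratio was 1.83 (0.263 to 20.3). An intronic region near Vmn1r40 (chr6:89710778-89711555) had 6, 4 and 0 reads, and an intronic region of Vmn2r58 (chr7:41842706-41843127) 4, 4 and 0. Input reads were at most 2 at any member, reached near Vmn2r94, Vmn1r41, Vmn2r61, Vmn2r114 and Vmn1r81 among the named regions.

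At receptor gene promoters the 410 members held 391 reads with AdEts1, 550 with AdGFP and 26 in the input. The scaled AdEts1 to AdGFP ratio was 0.651 (0.541 to 0.787), against 0.801 (0.789 to 0.813) for other promoter-class regions without the 10 most-read. Vmn1r promoters gave 277 and 337 reads, a ratio of 0.753 (0.598 to 0.949). Vmn2r promoters gave 114 and 213 reads, with 47 of 136 regions called with AdEts1 and 100 with AdGFP. Among other promoter-class regions without the 10 most-read, 18063 of 41366 were called with AdEts1 and 26033 with AdGFP. The Vmn2r promoter ratio was 0.490 (0.347 to 0.679). It was the lowest ratio of the 7 classes over all members and of the classes within either family, and was singled out after its value was seen. Scaled to listed reads without the 10 most-read regions, the promoter ratios were 1.05 (0.829 to 1.32) for Vmn1r, 0.680 (0.482 to 0.943) for Vmn2r and 1.11 (1.10 to 1.13) for other regions. No replicate library shows whether the Vmn2r value would recur. The members' ratio was 0.808 (0.709 to 0.923) in introns, 0.886 (0.681 to 1.15) in the 3′ UTR class and 0.754 (0.685 to 0.830) in distal sequence.

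The best-read promoter regions were few and small. The region upstream of Vmn2r100 (chr17:19502056-19502776) had 0 reads with AdEts1, 10 with AdGFP and 0 in the input. Vmn1r189 (chr13:22102622-22103229) and Vmn1r192 (chr13:22186787-22187316), V1R genes of the chromosome 13 array, each had 6, 2 and 0 reads. Vmn2r101 (chr17:19576448-19577247) had 4, 4 and 0, and Vmn1r52 (chr6:90175476-90176372) had 8, 0 and 0. Of these 5 promoters, 3 had more reads in the AdEts1 library, 1 had more in the AdGFP library and 1 had the same number in both.

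Counted by gene, 216 of the 311 receptor genes (69.5%) had a promoter-class region, 133 of 190 Vmn1r genes and 83 of 121 Vmn2r genes. Of the 18740 other nearest genes, 61.9% had one. A promoter-class region was called with AdEts1 for 116 receptor genes (37.3%) and with AdGFP for 185 (59.5%), against 37.8% and 48.6% of the other genes. In both sets were 85 genes, 73.3% of the AdEts1 set and 45.9% of the AdGFP set, against 64.7% and 50.4% for the other genes. The same region was called in both libraries for 27 genes (8.68%), against 8.03% of the others. The part of the number of regions per gene in these shares was not tested. A receptor gene had 1 to 45 regions with a median of 8, against a median of 6 for the other genes, and the median was 6 for Vmn1r against 11 for Vmn2r genes. The genes with the most were Vmn2r120 with 45, Vmn2r121 with 44 and Vmn2r58 with 37.

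GENCODE M21 lists 332 coding genes and 233 pseudogenes with these names. A region was assigned to 309 of the coding genes and to 2 pseudogenes, so 23 coding genes had none. Of those 23, 13 lay in a single cluster on chromosome 7 that is described next.

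Chromosome 7 held 1153 members (38.4%), chromosome 17 held 718 and chromosome 6 held 502. Chromosomes 13, 5 and 10 held 155, 141 and 119, and chromosome 3 held 82. The 44 members on chromosome X were all nearest to Vmn2r121, the 30 on chromosome 18 all to Vmn1r238, and the 12 on chromosome 1 all to Vmn1r1. Chromosomes 14 and 4 held 25 and 18, and an unplaced scaffold the last 4.

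Receptor genes less than 1 Mb apart were joined into clusters of at least 5 genes, which gave 14 clusters on 6 chromosomes with 288 of the 311 genes over 24.9 Mb. All listed regions were counted inside those spans, whatever their nearest gene. The clusters held 6062 regions, or 244 per Mb, against 212 per Mb on the rest of the same 6 chromosomes. At the clusters' base composition the genome's density would give 212 per Mb. Members made up 2577 of the 6062, or 42.5%, and 426 members lay outside the clusters.

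Density varied widely from one cluster to another. The 10 Vmn2r genes on chromosome 5 (chr5:108791843-109458459) had 336 regions per Mb, and the 15 Vmn2r genes on chromosome 7 (chr7:84935565-87044941) had 325. The 52 Vmn1r genes on chromosome 7 (chr7:20101158-24055691) had 113, the lowest value. In that cluster 83.2% of 50-base windows set every 1000 bases had another exact copy in the genome, against 15.2% to 58.5% in the other 13. Across the 14 clusters the density fell as this share grew, with a Spearman coefficient of -0.71, and -0.64 without that cluster. This is a description across clusters of the same libraries, and reads of duplicated sequence can be lost or misplaced in mapping.

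**Figure D3:**
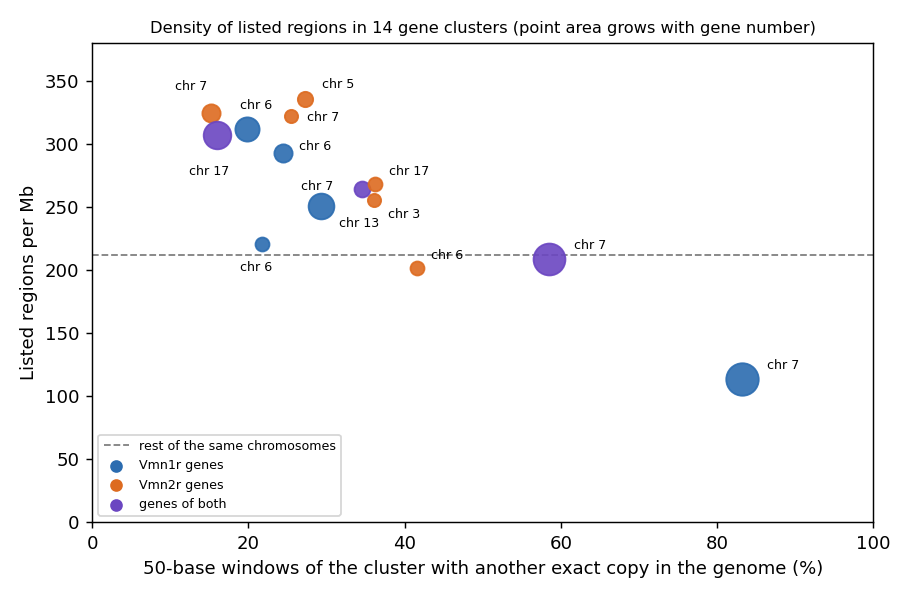
Listed regions per Mb (y axis) against the share of 50-base windows with another exact copy in the genome (%, x axis) in 14 clusters, each labelled by chromosome, with point area growing with the number of genes. The cluster at the lower right is the array of 52 Vmn1r genes on chromosome 7, at 113 regions per Mb and 83.2% copied windows, and the dashed line marks 212 per Mb on the rest of the same chromosomes.

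When windows with copies were set aside, the spread narrowed. Regions with single-copy centres per Mb of single-copy sequence numbered 311 over all clusters and 227 to 347 in single clusters, against 215 in the genome. The value was 321 in the Vmn1r cluster of low density on chromosome 7, and in every cluster it was above the genome's value. Why that cluster had a low density over its whole span was not tested. The authors' handling of reads that map to several places is not given in the sources used here.

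Cluster by cluster, the members' scaled AdEts1 to AdGFP ratio lay between 0.635 and 0.916 in the 14 clusters. The cluster with the most members spans chr17:17703747-21314912 and holds 14 Vmn1r and 23 Vmn2r genes. Its 570 members had 570 reads with AdEts1 and 796 with AdGFP, a ratio of 0.656 (0.561 to 0.766), with 7 members called higher (1.23%) and 15 lower (2.63%), against 1.85% and 1.95% of all regions. The mixed cluster of 24 Vmn1r and 26 Vmn2r genes (chr7:7231327-13220657) had 419 and 489 reads at 406 members, a ratio of 0.785 (0.650 to 0.948), with 7 higher (1.72%) and 2 lower (0.493%). The Vmn1r cluster of low density had 263 and 271 reads at 258 members, a ratio of 0.889 (0.694 to 1.14), with 3 higher (1.16%) and 0 lower. All 14 intervals included 0.720, the value of other regions on the same scaling. All 14 ratios were below 1 by library totals, but ranged from 0.881 to 1.27, 10 of them above 1, when scaled to listed reads without the 10 most-read regions.

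**Figure D4:**
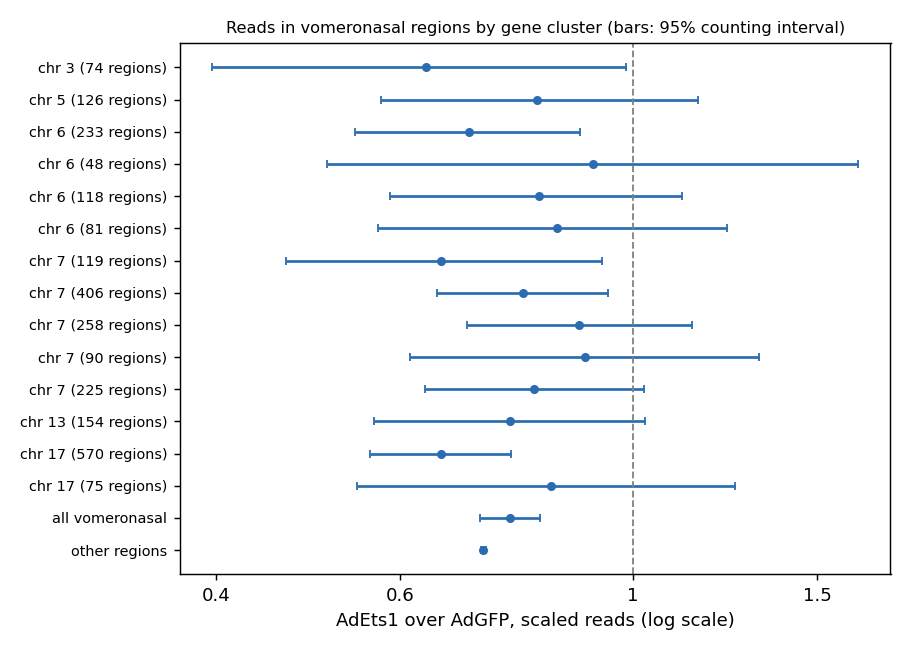
AdEts1 to AdGFP ratio of scaled reads (x axis, log scale) over the members of each of the 14 clusters, with 95% exact intervals for counting error. Points range from 0.635 to 0.916, and all 14 intervals include 0.720, the value of other regions without the 10 most-read.

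Inside the clusters the density of listed regions was much the same at every place of a receptor gene. It was 274 per Mb within 1 kb of a start site, 258 in coding exons outside that, 288 in other gene sequence and 234 between genes. The share of windows with a single copy ran 72.8%, 56.9%, 73.3% and 54.7% at the same places. In the genome, without the 10 most-read regions, density was 172 per Mb within 1 kb of coding start sites and 206 elsewhere. Receptor start sites therefore carried more listed regions per Mb than coding start sites in general, and about as many as the bodies of the same genes. Reads in those regions did not follow. Receptor start sites held 262 AdEts1, 350 AdGFP and 20.4 input reads per Mb, against 431, 414 and 65.4 at coding start sites in general. Over the genome, listed regions fell from 254 per Mb below 30% GC to 174 at 50% or more. The part of base composition in the difference was not tested.

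By sequence the members were poorer in G and C and richer in repeats than other regions. Their central 200 bases had a mean GC content of 37.9%, against 40.8% in other regions, and 54.6% against 35.9% of their bases were repeat-masked. Regions nearest olfactory receptor genes also had a mean GC content of 37.9%, with 46.8% masked bases. Evenly spaced windows of the clusters themselves had 39.2% GC and 53.6% masked bases, values close to the members'. The central 50 bases occurred once in the genome for 74.2% of members, against 90.2% of other regions and 58.3% of the cluster windows. Whole regions were also compared with each other. At 539 members (17.97%) another member matched at 90% identity or more over at least 80% of the region's length. Such a match lay on the same chromosome for 357 of them, so members are not independent sequences.

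Long ETS words were no more frequent in the members than in the sequence around them. CAGGAAGT or CCGGAAGT, on either strand, was found in 21 of 2999 member windows (0.7002%, exact interval 0.434 to 1.07), in 1.35% of other regions, in 0.937% of cluster windows and in 1.42% of genome windows. The same letters in reversed order, TGAAGGAC or TGAAGGCC, were found in 1.30% of members and 1.31% of other regions. The bare core GGAA or TTCC was present in 89.2% of members and 87.5% of other regions. In RefSeq promoters, 250 bases before to 50 after the start, the longer words were found in 3 of 206 Vmn1r and 1 of 118 Vmn2r promoters, against 7.07% of all 32851. Those promoters had mean GC contents of 35.6% and 38.1%, against 53.8% for all.

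The authors' deposited peak lists rank almost all these regions at the bottom. The AdEts1 list held 1395 peaks nearest receptor genes (0.588% of 237322), of which 1201 (86.1%) carried the list's largest q value of 0.820, against 85.1% of all its peaks. The AdGFP list held 1806 (0.531% of 339856), of which 89.9% carried its largest q value of 0.764, against 88.3% of all. A q value of at most 0.05 was given to 17 peaks (1.22%, all peaks 1.38%) in the AdEts1 list and to 9 (0.498%, all peaks 0.827%) in the AdGFP list. No member was overlapped by such peaks of both lists, and the same overlap was not counted over all regions.

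The smallest deposited q value with AdEts1, 0.00101, was shared by peaks near Vmn2r95, Vmn1r81 and Vmn2r25, at the authors' fold enrichment of 4.64. With AdGFP it was 0.00262, for peaks near Vmn2r94 and Vmn2r12 at 4.56-fold enrichment. Promoter-class peaks under 0.05 in the authors' deposited table were those of Vmn1r42 and Vmn1r83, both with AdEts1.

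The other genes of vomeronasal neurons showed the same low counts. Of 31 genes looked up, which include the transduction channel Trpc2, the G protein genes Gnai2 and Gnao1, the formyl peptide receptors of the Fpr-rs group and the H2-M10 genes, 30 had a region and Gng8 had none. Their 379 regions held 387 reads with AdEts1, 509 with AdGFP and 24 in the input, at most 6 and 7 in a single region of the precipitated libraries. By the call rule above 3 were higher (0.792%) and 4 lower (1.06%), against 1.85% and 1.95% of all regions, and the median deposited log2 ratio was -1.13, as over all regions. Trpc2 had a single region, with 0, 4 and 0 reads in the AdEts1, AdGFP and input libraries. Gnao1, which encodes the Gαo of V2R neurons and is also used in other neurons and endocrine cells, had 27 regions with 17, 40 and 2 reads. Gnai2, which encodes the Gαi2 of V1R neurons, had 6 with 8, 9 and 0.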

How the data were processed

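Chromatin immunoprecipitation libraries of Min6 cells were sequenced in pairs, and 3 libraries were used, 1 per group. Per the submitters' processing notes, the tools were FastQC, Trimmomatic, BWA 0.7.12 and MACS2 2.1.0 on mm10. How duplicate and multiply mapped reads were handled, and what MACS2 used as its control sample, is not given in the sources used here. For the comparison the authors deposited a comparison table with read counts, RPM values (1 added to each count), a log2 ratio, and marks of which library called the region, annotated with ChIPseeker, per the file headers. They also deposited 2 peak lists with a peak score, a fold enrichment and −log10 of p and q values. Here q values were obtained by inverting the deposited −log10 values.

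Library totals were recovered from deposited counts and RPM values. Ratios used counts scaled to those totals, with exact conditional binomial intervals at 95% on fragments of 2 reads. Polymerase copies are not independent molecules, so intervals cover counting error only. No ratio is given for a region with a zero count, and the 10 most-read regions outside the members were left out where stated. Peak list starts count from 0 and were raised by 1. Sequence came from RefSeq GRCm38.p6 and gene models from GENCODE M21, with Python 3.11.15, pandas 2.3.3, scipy 1.17.1, pysam 0.24.0, bedtools 2.31.1 and blastn 2.17.0. Copies were exact matches of the central 50 bases on both strands. The ratio and interval code was tested on simulated data.

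Named regions were the 10 with the most precipitated reads, the 5 highest and 5 lowest deposited ratios among those with 5 or more reads, the 5 with the most input reads, the 5 best-read promoter regions and the best-read region of each cluster. Regions with the authors' smallest q values, genes with the most regions and the lowest class ratio were named after their values were seen. The members and lists were chosen with earlier results of these data known. Alternatives changed the member rule, the read minimum, the fold, the scaling, the cluster gap and the peak threshold.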

Additional observations from a re-analysis of the deposited data

How the results depend on the processing

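Over 18 alternative settings of 9 results, 58 of 83 values stayed within their limits, 23 moved and 2 turned direction. No paired analysis was possible because every arm has a single library. The AdEts1 to AdGFP ratio, below 1 by library totals, was 1.06 when scaled to listed reads without the 10 most-read regions and 1.02 over regions with 5 or more reads. With the first of these settings the ratios over the input fell to 1.61 with AdEts1 and 1.52 with AdGFP. With the second, 105 members were left, 10.48% in the promoter class and 20% called in both, the AdEts1 to input ratio was 49.5 and the clusters held 8.09 regions per Mb. Only members in the promoter class or inside a receptor transcript numbered 1153 (35.6% promoter, 24 higher, 15 lower), and only members within 10 kb of the start numbered 1676 (24.5%, 26 higher, 21 lower). Higher calls were 35 without the widest 1% of regions. The same shares over all regions were not counted under these limits on reads, place or width, so these counts have no background. Without the limits, 1.85% of all regions were higher, 1.95% lower and 6.13% called in both. With at least 10 reads, 5 were higher (0.167%, all regions 0.130%) and 2 lower (0.0666%, all regions 0.0843%). With no minimum, 924 were higher (30.8%, all regions 29.9%) and 1545 lower (51.4%, all regions 52.6%). The promoter share was 9.59% within 1 kb only, and 15.5% over members whose central 50 bases occur once, an alternative chosen after seeing the data. Peaks of q at most 0.05 in both lists overlapped 0% of members, which allows up to 0.123%. The settings changed the regions kept, the limits or the divisor, and why each value moved was not tested. No member had more than 12 reads in a library, and no replicate shows whether a difference at a single region would recur.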
